A study of Mus musculus with 4 samples.

Results

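The subunits and inhibitors of calcineurin and protein phosphatase 1 (PP1) were followed in whole left hippocampi from wild-type mice. The set holds 10 genes: Ppp3ca, Ppp3cb, Ppp3cc and Ppp3r1 of calcineurin, the PP1 catalytic genes Ppp1ca, Ppp1cb and Ppp1cc, and the PP1 regulators Ppp1r1a, Ppp1r1b and Ppp1r9b. Their members on the array were all probe sets that the platform's probe table pairs with exactly 1 of these symbols, which gave 21 of 45101 probe sets and 9 of the 10 genes. Ppp1r9b, the actin-binding PP1 anchor spinophilin, had no such probe set and was not analysed here. For Ppp3r1, 1 further probe set is listed with a second gene and was left out.

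The study measured transcript levels with 1 Affymetrix array for each of 4 samples, numbered 11, 13, 15 and 17 in the labels and described there as biological replicates. All 4 are wild type and untreated as far as the labels say, and the sources used here give no strain, age or sex. They form 1 group, so there is no contrast between conditions, and the comparisons below are between single samples and between probe sets of 1 gene. Values are log2 intensities that the authors made with RMA, which corrects the background, aligns the arrays and summarises the probes of a set. A difference of 1 on this scale is a doubling of the signal.

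Calcineurin and PP1 remove phosphate from serine and threonine and so oppose the kinases that strengthen synapses. Calcineurin is switched on by calcium and calmodulin. In dendritic spines it is known to dephosphorylate inhibitor-1, which releases PP1 from inhibition, a cascade long tied to long-term depression in the hippocampus. PP1 has little choice of substrate by itself and is steered by many targeting and inhibitory subunits.

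Markers of the labelled tissue were present. All 9 neuron markers and 12 of 14 markers of hippocampal fields exceeded 6.47, the background limit, set at the 95th percentile of 41 measured genes typical of tissues such as testis, liver and skin. The background genes included the sperm protamines Prm1 at 6.08 ± 0.075 and Prm2 at 3.72 ± 0.23 (n = 4). Of the 41, 2 lay above the limit, Krt10 at 7.44 ± 0.24 and Lor at 7.10 ± 0.21, named after their values were seen. Marker genes above the limit were for example the synaptic genes Snap25 (11.44 ± 0.027) and Syt1 (11.87 ± 0.021) and the CA1 markers Wfs1 (8.88 ± 0.19) and Fibcd1 (8.74 ± 0.13). The interneuron and astrocyte markers were all above it too, at 7 of 7 and 6 of 6, with 4 of 6 for microglia and 1 of 6, Ttr, for choroid plexus. Of these, Gad1 stood at 10.24 ± 0.037, Gad2 at 8.23 ± 0.018, Gfap at 10.29 ± 0.23, Aqp4 at 9.14 ± 0.074 and Csf1r at 9.89 ± 0.15, while Kl of choroid plexus was under background at 5.41 ± 0.33. Also under background were the field markers Grik4 (6.40) and Prox1 (5.76) and the microglial P2ry12 (6.03) and Aif1 (5.90), named after their values were seen. All 7 measured oligodendrocyte markers were highest in sample 13, and their mean deviation from their own means ran from -0.218 in sample 11 to 0.431 in sample 13, with Mbp at 12.05 ± 0.064 (n = 4) and Mog between 6.003 and 7.07. Ttr was also highest in sample 13, at 9.84 against 6.54 to 7.36 in the others. The 3' minus 5' difference of the Gapdh control probe sets, a common check of RNA quality and of copying along the transcript, was 0.62 in both of samples 11 and 13, and 2.64 and 3.79 in samples 15 and 17. For Actb it was 1.10, 1.25, 1.93 and 2.33 in the same order. Levels of a whole tissue cannot tell apart fewer cells of a type and less RNA per cell, and precision is limited by having 4 arrays.

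Transcripts of 8 of the 9 measured genes were above background, by 14 of their 21 probe sets. Over the whole array 44.0% of genes and 33.1% of single-symbol probe sets passed. The exception was Ppp3cc. Passing the limit does not set every set apart from the background genes. The mean of Ppp1r1b (7.33) was under that of Krt10 (7.44). That of the Ppp3cb set 1433835_at (6.64) was under those of both Krt10 and Lor (7.10). Probes differ in affinity, so levels of different probe sets or genes are not ranked.

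Ppp3ca encodes the alpha form of calcineurin A, the catalytic subunit that binds calmodulin, and is the main form in forebrain neurons. Its probe set with the highest mean (1426401_at) stood at 11.98 in sample 11, 11.91 in samples 13 and 17 and 11.82 in sample 15, or 11.90 ± 0.066 (SD, n = 4). The second (1438478_a_at) stood at 11.49, 11.46, 11.40 and 11.43 in samples 11, 13, 15 and 17, with an SD of 0.036. The third (1452056_s_at) stood at 10.54, 10.45, 10.55 and 10.58, with an SD of 0.054, or 0.0213 without sample 13. The first and the second set were highest in sample 11 and lowest in sample 15, whereas the third was lowest in sample 13 and highest in sample 17.

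Ppp3cb encodes the beta form of calcineurin A. Its brightest probe set (1428473_at) was among the steadiest of the array: it stood at 11.22, 11.18, 11.21 and 11.20 in samples 11, 13, 15 and 17, an SD of 0.0188. Of all single-symbol probe sets above background 4.95% had a smaller SD, and of the 1000 nearest in level 10.3%. Another probe set of the same gene (1427468_at) stood at 8.94, 8.83, 8.63 and 7.99 in the same samples, an SD of 0.425, or 0.157 without sample 17 and 0.079 without samples 15 and 17. Its span between samples 11 and 17 was 1.93-fold, against 1.03-fold for the brightest set, and 98.6% of probe sets above background had a smaller SD. The third set above background (1433835_at) followed neither, at 6.60, 6.87, 6.60 and 6.51, with the highest value in sample 13, and without that sample its SD of 0.157 was 0.051. The other 2 sets were under background, 1428474_at with a mean of 5.02 and 1446149_at with a mean of 3.004.

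Ppp3r1 encodes a form of calcineurin B, the calcium-binding regulatory subunit of calcineurin. Its brightest probe set (1433591_at) stood at 11.96, 11.95, 11.96 and 12.01 in samples 11, 13, 15 and 17, or 11.97 ± 0.025 (SD, n = 4). The second set (1421786_at) was under background at 5.68, 5.47, 5.92 and 6.14, and its SD of 0.288 exceeded that of the bright set. Both sets were lowest in sample 13 and highest in sample 17.

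Ppp3cc, the gamma form of calcineurin A, is best known from testis. Its 2 probe sets were under background in each sample: 1420743_a_at stood at 4.56, 4.85, 4.96 and 4.71 in samples 11, 13, 15 and 17, and 1430025_at between 2.95 and 3.20. Signal this low leaves unsaid whether the transcript was absent.

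PP1 is built on 3 catalytic genes, alpha (Ppp1ca), beta (Ppp1cb) and gamma (Ppp1cc). Ppp1ca, read by 1 probe set (1460165_at), stood at 10.38, 10.43, 10.54 and 10.50 in samples 11, 13, 15 and 17, an SD of 0.074. The brightest set of Ppp1cb (1426205_at) stood at 10.11, 10.07, 10.05 and 10.04 in the same samples, with an SD of 0.033. Its second set (1433540_x_at) lay between 7.63 and 7.70, with equal values in samples 11 and 17, and the other 2 were under background, 1431328_at at 6.32 just under the limit and 1456462_x_at at 4.20.

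Ppp1cc, a form that is concentrated in dendritic spines, repeated the picture of Ppp3cb. Its brightest probe set (1450149_a_at) stood at 10.83 in samples 11 and 13, 10.87 in sample 15 and 10.79 in sample 17, an SD of 0.035. Its other set (1452046_a_at) stood at 8.71, 8.63, 8.31 and 8.01 in samples 11, 13, 15 and 17, a 1.63-fold span. The SD was 0.321, or 0.211 without sample 17 and 0.0579 without samples 15 and 17. In each of the 2 genes the dimmer set was lowest in sample 17 and highest in sample 11, while the bright set moved by less than 0.1.

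Of the PP1 inhibitors, Ppp1r1a encodes inhibitor-1, which blocks PP1 when phosphorylated by protein kinase A and loses that action when calcineurin dephosphorylates it. Its only probe set (1422605_at) stood at 9.01 in samples 11 and 15, 8.98 in sample 13 and 9.15 in sample 17, an SD of 0.074. Ppp1r1b encodes DARPP-32, the related inhibitor of dopamine-responsive neurons, best known from striatum. Its only probe set (1451331_at) stood at 7.31, 7.36, 7.47 and 7.20 in samples 11, 13, 15 and 17, an SD of 0.111, the largest among the brightest probe sets of the 8 detected genes. Of 8 measured striatal markers 5 were above background, with mean deviations between -0.066 in sample 13 and 0.0997 in sample 15. Ppp1r1b was also highest in sample 15, but it was lowest in sample 17. The 5 markers went both ways: Penk, Pde10a and Adcy5 were highest in sample 15, whereas Rgs9 and Tac1 were highest in sample 11. Penk moved most, at 8.34 in sample 15 and between 7.82 and 7.87 in the others. These 5 were singled out with their values already known. The dopamine receptors Drd1 (4.66 ± 0.063, n = 4) and Drd2 (4.39 ± 0.12) were under background, and the part of striatal tissue in the level of Ppp1r1b was not tested.

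**Figure D1:**
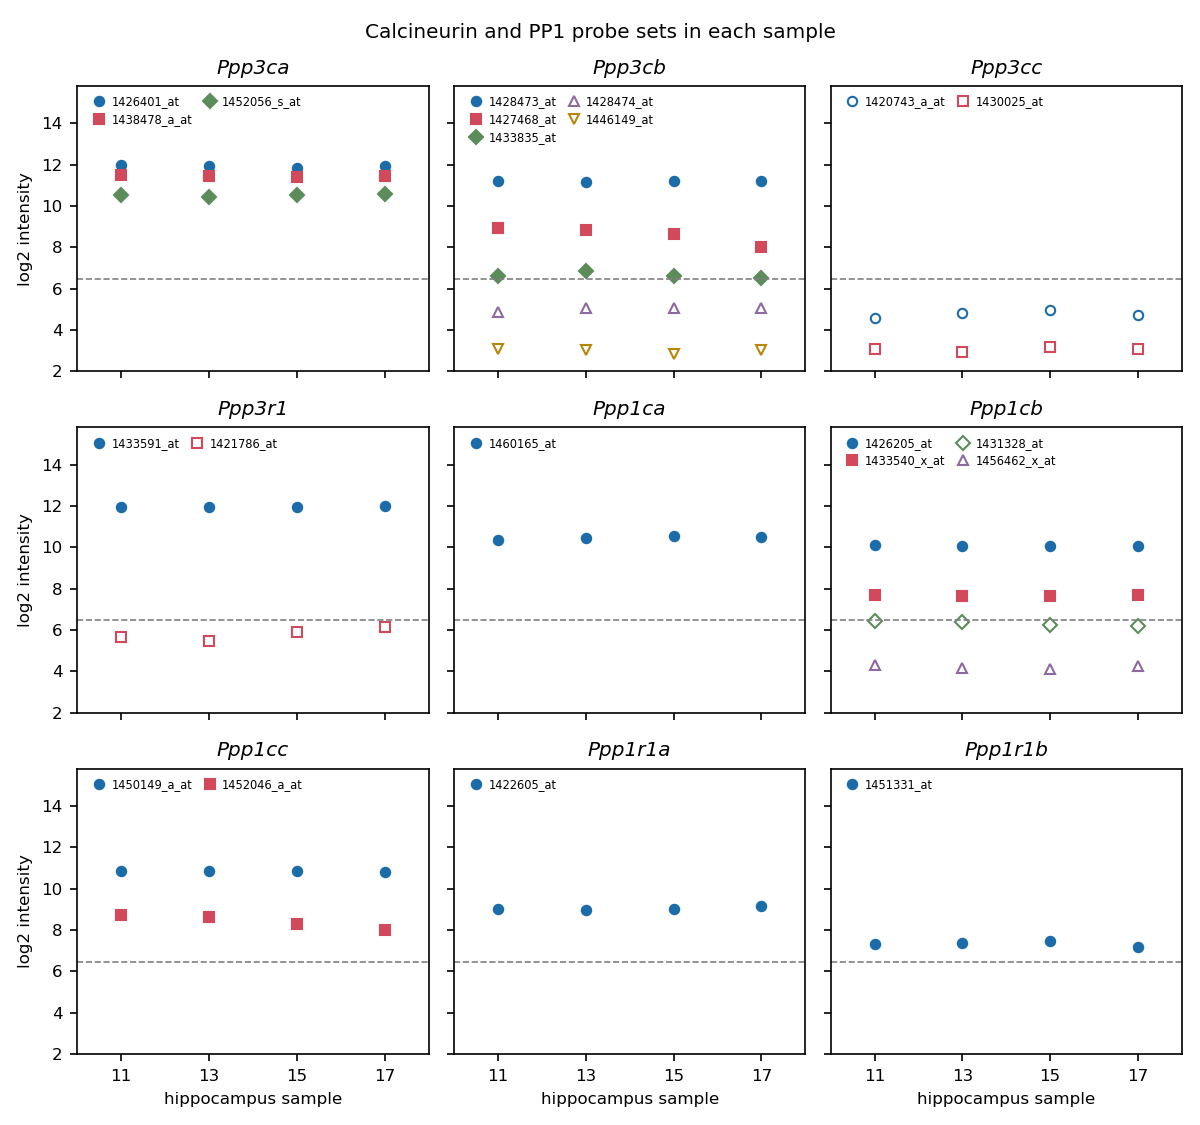
Log2 intensity (vertical axis) of each probe set of the 9 measured genes in hippocampus samples 11, 13, 15 and 17 (horizontal axis); filled symbols have a mean above the background of 6.47 (dashed line) and open symbols do not. Most filled symbols are level across samples, while 1427468_at of Ppp3cb and 1452046_a_at of Ppp1cc are lowest in sample 17, at 7.99 and 8.01.

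The brightest probe sets of the detected genes had, at the median, a smaller SD over the 4 samples than genes above background in general. Among the 8 detected genes the SD of the brightest set ran from 0.0188 for Ppp3cb to 0.111 for Ppp1r1b, with a median of 0.0505, against 0.0845 over the 8000 genes above background. It lay under that median in 7 of the 8, the exception being Ppp1r1b. Bright probe sets vary less in general, so the level matters here: among the 1000 probe sets nearest in level, 63.8% had a smaller SD than Ppp3ca, 63.4% than Ppp1ca and 58.7% than Ppp1r1b. The share was 45.2% for Ppp1r1a, 25.5% for Ppp1cc, 18.3% for Ppp1cb, 17.0% for Ppp3r1 and 10.3% for Ppp3cb. Against probe sets of like level, then, 5 of the 8 lay under the middle and 3 above it. Single samples weigh on these values: without sample 17 the SD was 0.0176 for Ppp1r1a and 0.0067 for Ppp3r1, without sample 13 it was 0.0065 for Ppp3cb, without sample 15 it was 0.0419 for Ppp3ca, and without sample 11 it was 0.0156 for Ppp1cb. Of the 14 probe sets above background, 10 had a range under 0.2, against 50.4% of all single-symbol probe sets above background, a share not matched for level. The deposited values also hold exact ties, which lower an SD: 4 of the 14 had equal values in at least 2 samples, against 29.6% of all.

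**Figure D2:**
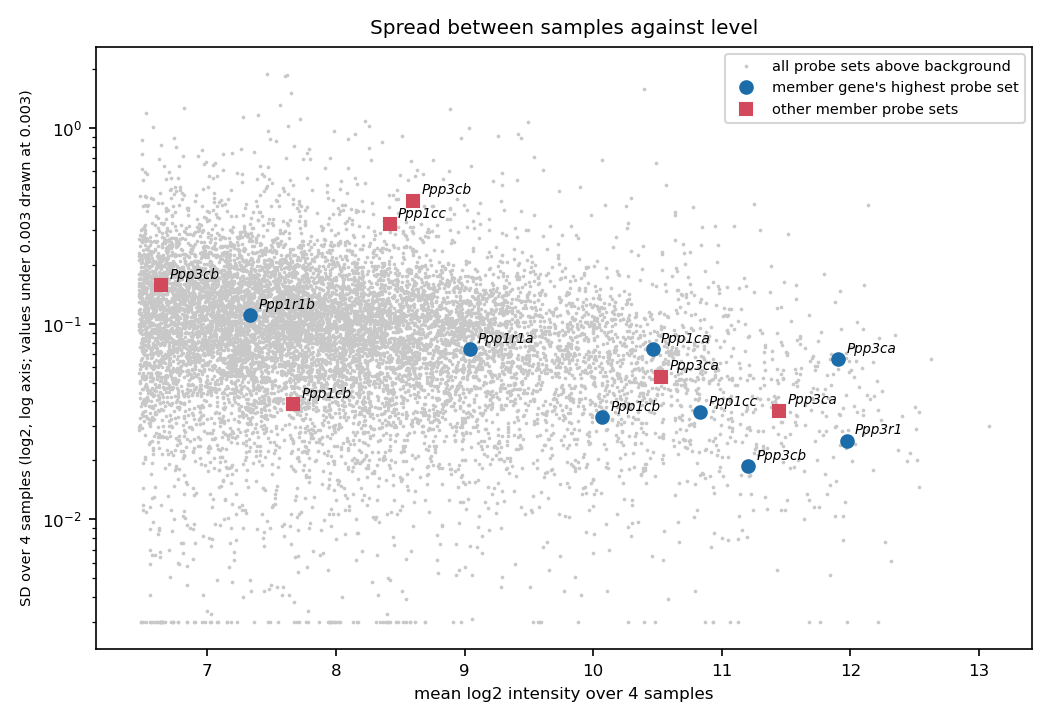
SD over the 4 samples (vertical axis, log scale) against mean log2 intensity (horizontal axis) for single-symbol probe sets above background (grey), with the brightest probe set of each detected member gene as circles and its other probe sets above background as squares. The circles lie between 0.0188 and 0.111, and the highest squares are 1 probe set each of Ppp3cb (0.425) and Ppp1cc (0.321).

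No member passed a test for differences between the samples. The first, an F test built here from limma's variances, asked whether the variance of a probe set exceeds that of others of its level. Adjusted with Benjamini-Hochberg over all 12772 probe sets above background, the 14 member probe sets had p-values of this test between 0.888 and 1.0. The share called over the array was 0.0%, with 374 probe sets at an unadjusted p under 0.05, so the test says nothing particular about the members. A second test asked whether the probe sets of a gene show the same difference between samples, by the mean square between samples over that of the probe-set-by-sample residual, after squeezing with limma, and was adjusted over 2481 genes with at least 2 probe sets above background. It called 21 genes, or 0.846%, among them the markers Ttr of choroid plexus, C1qb of microglia and Pou3f1 of CA1, and 0 of the 4 members tested. With so small a share called over the array, this too says nothing particular about the 4. The adjusted p was 0.426 for Ppp3cb, 0.493 for Ppp1cc, 0.604 for Ppp3ca and 0.735 for Ppp1cb, with unadjusted values of 0.172, 0.247, 0.406 and 0.612 by the same limma-based F test. For Ppp3cb the mean deviation of its 3 sets ran from 0.144 in sample 13 to -0.247 in sample 17, and for Ppp1cc from 0.148 in sample 11 to -0.225 in sample 17. The mean square between samples was 2.14 times the residual for Ppp3cb and 1.89 times for Ppp1cc, which this test did not separate from the disagreement between a gene's own probe sets. Probe sets of 1 gene may share probes or targets and are not replicates of a condition.

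The disagreement between probe sets was itself different from sample to sample. For Ppp3cb the brightest set exceeded 1427468_at by 2.27, 2.35, 2.58 and 3.21 in samples 11, 13, 15 and 17. For Ppp1cc the brightest exceeded 1452046_a_at by 2.12, 2.20, 2.56 and 2.78 in the same order. The samples thus had the order of the Actb 3' minus 5' difference, and samples 15 and 17 were the highest for both genes as they were for Gapdh. The difference was wider in sample 17 than in sample 11 by 0.94 for Ppp3cb and by 0.66 for Ppp1cc.

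The remaining pairs did not widen in this way. The differences in Ppp3ca lay between 0.417 and 0.494 for 1438478_a_at and between 1.27 and 1.45 for 1452056_s_at, and were smaller in sample 17 than in sample 11 by 0.018 and 0.11. In Ppp1cb the difference was 2.42, 2.44, 2.41 and 2.34 in samples 11, 13, 15 and 17. The other set of Ppp3cb, 1433835_at, differed from the brightest by 4.62, 4.31, 4.62 and 4.70. So 2 of 6 pairs widened by at least 0.5 between samples 11 and 17, against 9.69% of 3561 such pairs over the array. The samples set against each other here were chosen with their control values known, and the sources used here do not place the probe sets along the transcripts. The part of the 5' loss in these 2 differences was not tested.

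**Figure D3:**
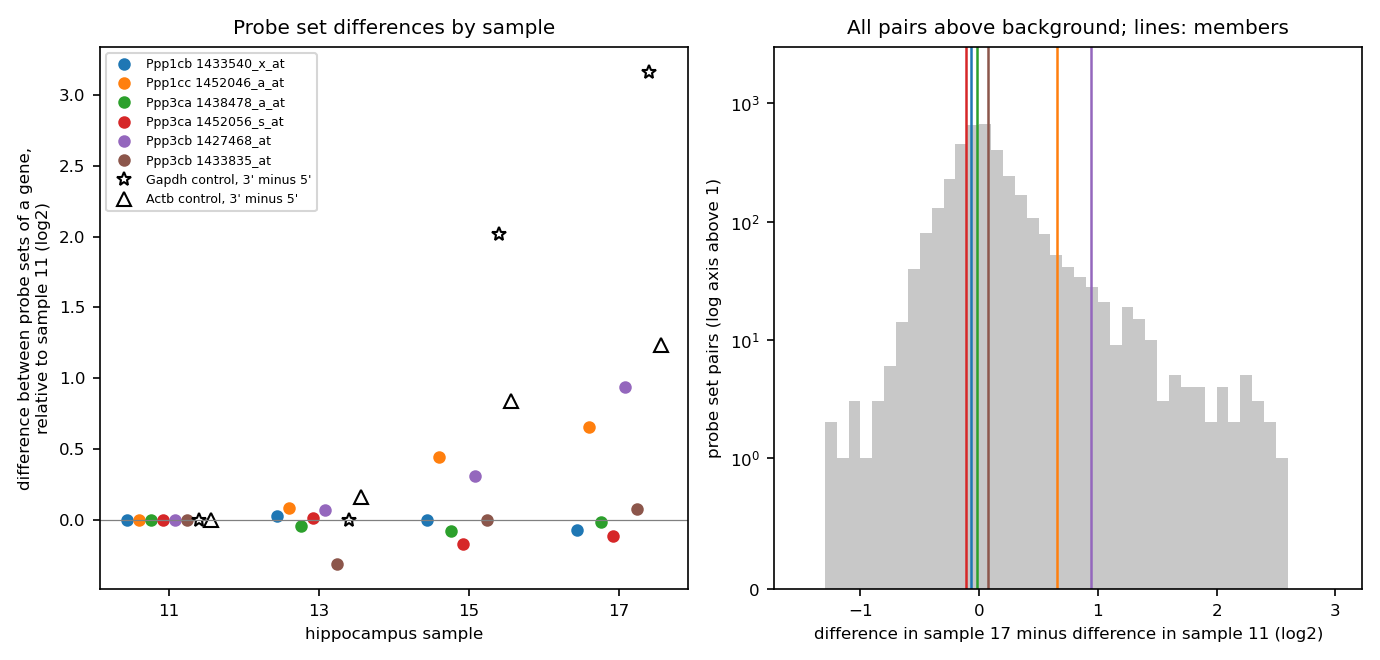
Left, the difference in log2 intensity between the brightest and another probe set of a member gene, and the 3' minus 5' difference of the Gapdh and Actb controls, in each sample relative to sample 11; the points of a sample are spread sideways to keep them apart. Right, the number of probe set pairs (log scale above 1) by how much wider the difference was in sample 17 than in sample 11 for all pairs above background except 3 beyond the axis; lines mark the 6 member pairs, of which Ppp1cc at 0.66 and Ppp3cb at 0.94 lie in the right-hand tail.

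For 5 of the 10 genes RefSeq's promoter table of GRCm38.p6 held a start: Ppp3cb, Ppp3r1, Ppp1cb, Ppp1cc and Ppp1r9b. The 150 bases before the start are shown for the 4 of these that the array measured, to set side by side a feature of the genes that the array does not read. They are written 5′ to 3′ on the gene's strand, with GC boxes (GGGCGG, the binding site of Sp factors, on either strand and counted with overlaps) in capitals.
Ppp3cb, chr14:20546574-20546723, minus strand: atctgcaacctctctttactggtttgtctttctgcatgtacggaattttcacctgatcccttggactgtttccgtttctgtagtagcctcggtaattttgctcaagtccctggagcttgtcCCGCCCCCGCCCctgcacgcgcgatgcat
Ppp3r1, chr11:17159148-17159297, plus strand: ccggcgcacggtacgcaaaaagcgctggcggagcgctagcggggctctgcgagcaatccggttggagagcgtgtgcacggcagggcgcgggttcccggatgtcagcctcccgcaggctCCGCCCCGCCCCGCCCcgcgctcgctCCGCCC
Ppp1cb, chr5:32458820-32458969, plus strand: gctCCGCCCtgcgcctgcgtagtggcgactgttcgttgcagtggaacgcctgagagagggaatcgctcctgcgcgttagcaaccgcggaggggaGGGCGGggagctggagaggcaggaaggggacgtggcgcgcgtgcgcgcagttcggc
Ppp1cc, chr5:122158125-122158274, plus strand: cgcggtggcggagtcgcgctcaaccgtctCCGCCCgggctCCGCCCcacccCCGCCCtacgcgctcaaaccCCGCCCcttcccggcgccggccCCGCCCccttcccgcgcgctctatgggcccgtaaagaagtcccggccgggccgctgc

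All 4 windows held a GC box, with 2 sites in Ppp3cb, 4 in Ppp3r1, 2 in Ppp1cb and 5 in Ppp1cc. Over 27025 windows of this length in the table, 29.0% held at least 1. The window of Ppp1r9b held 0. No window of the 5 held the TATA box TATAAA (8.08% of all windows), the CCAAT box CCAAT (25.3%) or the cyclic AMP response element TGACGTCA (1.44%), each searched on both strands. The share of G and C was 75.3% in Ppp3r1, 70.0% in Ppp1cb, 78.7% in Ppp1cc and 80.0% in Ppp1r9b, against a median of 54.0%. Ppp3cb stood apart with 52.0%, under that median. It held 8 CpG dinucleotides, where the other 4 held 19 to 24 and the median window 4. Letters that match a motif describe the window and do not show that a factor binds there.

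Genes listed as regulators and targets of the 2 phosphatases came from 4 lists of 52 genes, of which 50 were measured and 31 were above background. Over the array 44.0% of genes passed, the share to set beside this and the counts below. None of the 9 of them with at least 2 probe sets above background was called by the test of agreement. With 0.846% called over the array, this says nothing particular about the 9. Of the calcineurin anchors and inhibitors, a list that also holds the regulatory subunit gene Ppp3r2, 4 of 8 passed background. Rcan1, a calcineurin inhibitor that calcineurin signalling itself induces, stood at 7.90, 8.09, 8.16 and 8.09 in samples 11, 13, 15 and 17. Its relative Rcan2 stood at 9.18 in samples 11, 15 and 17 and at 9.32 in sample 13. Fkbp1a, which carries the calcineurin-blocking drug FK506, had a level of 11.75 ± 0.082 (SD, n = 4), while Akap5, which anchors calcineurin at the postsynaptic membrane, was under background at 5.31 ± 0.069; both were named after their values were seen.

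Of the listed NFAT and CRTC factors, not all of which calcineurin dephosphorylates, 4 of 8 passed background. Nfatc1 was under it at 5.06 ± 0.014 (n = 4), and Nfatc2, a factor that moves to the nucleus on dephosphorylation, stood at 7.51, 7.62, 7.69 and 7.42 in samples 11, 13, 15 and 17. The largest SD of this list above background, 0.223, belonged to the CREB coactivator Crtc3, at 7.36 in sample 11 and between 7.70 and 7.85 in the others, a gene named after its values were seen. With its 2 probe sets above background it was not called.

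Of the listed PP1 inhibitors 5 of 8 passed, and of the targeting subunits 18 of 26. Ppp1r2, or inhibitor-2, was steady at 9.78, 9.82, 9.83 and 9.83 in samples 11, 13, 15 and 17, and Ppp1r8, a nuclear inhibitor, stood at 8.35, 8.41, 8.46 and 8.59. Ppp1r3a and Ppp1r3b, which direct PP1 to glycogen in muscle and liver, were under background at 3.36 ± 0.22 and 3.87 ± 0.12 (n = 4). Ppp1r9a, or neurabin, the relative of spinophilin, stood at 9.96, 9.99, 9.99 and 10.28, highest in sample 17, and was named after its values were seen. Among the other phosphatases of the family, 6 of 8 passed, and Ppp2ca, the catalytic subunit of protein phosphatase 2A, had a level of 10.79 with an SD of 0.0043, and its close copy Ppp2cb one of 8.93 ± 0.030 (n = 4).

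Sample 11 was the lowest for 20 of the 31 listed regulators and targets above background, where 47.4% of all genes above background were lowest in it. Their mean deviations in sample 11 were -0.0989 for calcineurin anchors and inhibitors and -0.108 for the NFAT and CRTC factors. They were -0.105 for PP1 inhibitors and -0.0674 for targeting subunits, and that of all genes above background was -0.0528. The mean deviations of the 8 detected subunits and inhibitors of the studied set were -0.0021, -0.0127, 0.0159 and -0.0011 in samples 11, 13, 15 and 17. Members went both ways within these means: in sample 11 Ppp1ca was at its lowest, whereas Ppp3ca and Ppp1cb were at their highest.

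**Figure D4:**
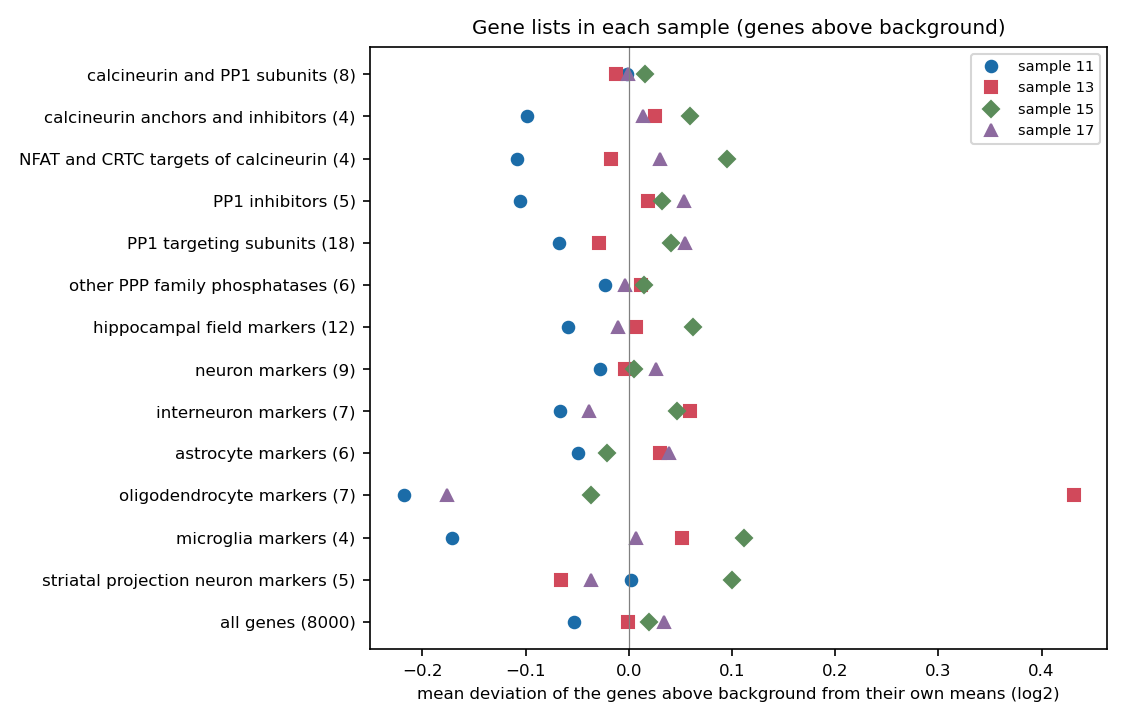
Mean deviation (log2, horizontal axis) of the genes of each list from their own means over the 4 samples, by sample; the number of genes above background is in brackets, and the choroid plexus and background lists are left out. The means of the calcineurin and PP1 genes, whose members went both ways, lie between -0.0127 and 0.0159, and that of the oligodendrocyte markers reaches 0.431 in sample 13.

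The genes whose values came closest to a member's are given by the root mean square difference of deviations over the 4 samples. For Ppp3cc, the member with the largest SD of its brightest probe set (0.174, under background), these were Cdh10 at 0.00495, Cstf1 at 0.0182 and Snd1 at 0.0191. For Ppp1r1b, chosen after its values were seen as the most variable detected gene, they were Mgat4b at 0.00816, Galnt9 at 0.00817 and Man2a1 at 0.015. Such likeness is common over so few samples: 56 genes above background lay within 0.05 of Ppp3cc and 134 within 0.05 of Ppp1r1b.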

How the data were processed

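RNA of the left hippocampus of 4 wild-type samples was extracted with a lipid tissue kit, amplified and labelled with biotin, per the labels' protocols. The authors deposited log2 intensities for each probe set, which per the submitters' processing notes come from RMA; the sources used here give neither its version nor its settings. Column medians lay between 4.67 and 4.71.

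The platform's probe table paired 34958 of 45101 probe sets with 1 symbol, 932 with several and 9211 with none, and 34754 were matched to RefSeq's GRCm38.p6 names by Entrez identifier. A gene was represented by its probe set with the highest mean. Background was the 95th percentile of 41 measured genes out of 48 not expected in hippocampus.

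The spread test took limma's residual variance over the prior variance (trend and robust fit, 2.22 prior degrees of freedom) as an F statistic. The agreement test is described in the report. Both used Benjamini-Hochberg adjustment at 0.05, the spread test over 12772 probe sets above background and the agreement test over 2481 genes. Both were tried on simulated data. For the spread test these had equal variances apart from planted probe sets, unlike the deposited values. They therefore do not show that it could call a probe set here, where the smallest adjusted p of its F test was 0.888. The p-values of the spread test set the variance of a probe set against that of others. Those of the agreement test set differences between samples against the disagreement of a gene's probe sets. Both concern only these samples.

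The members and lists were chosen with earlier results of these data known. All member probe sets are named; of the other lists, called genes and the first 2 measured are, for the member with the largest SD the 3 most alike genes, and the Gapdh and Actb controls. Exceptions are stated. Alternatives covered the background limit, normalization, the variance prior, the probe sets used, the threshold and samples left out. R 4.3.3, limma 3.58.1, Python 3.11.15, pandas 2.3.3 and matplotlib 3.10.9 were used.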

Additional observations from a re-analysis of the deposited data

Results flagged for a closer look

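In 6 of 57 sets of 4 values, 1 sample stood apart from the other 3 by a larger part of the range than Dixon's 95% limit allows; chance gives about 1 in 20, and equal values in the remaining samples make such gaps more frequent. Among the members this held for 1 probe set of Ppp3cb under background (1428474_at), lowest in sample 11 at 4.867 and between 5.07 and 5.08 in the others. Rcan2 was highest in sample 13 at 9.316, against 9.18 in each of the others, a difference of 0.134. Nfatc1, under background, was highest in sample 15 at 5.082 against 5.05. The microglial receptor Cx3cr1 was highest in sample 11 at 7.708, with 7.63 in the other 3, while the complement gene C1qb was lowest in that sample at 8.017, with 8.45 to 8.51 in the others. Drd2, under background, was lowest in sample 11 at 4.209, with 4.43 to 4.48 in the others.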

How the results depend on the processing

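No member was called by either test under any alternative, and the adjusted p of the limma-based agreement test ran over settings from 0.426 to 0.821 for Ppp3cb, 0.493 to 0.738 for Ppp1cc, 0.432 to 0.818 for Ppp3ca and 0.436 to 0.914 for Ppp1cb. Spread calls stayed at 0 over the array in every setting run. The count of 21 genes called by the agreement test over the array moved more, for which the cause was not tested: it was 13 with the background limit at the median of the unexpected genes and 13 with no filter, 75 with median centring, 37 without squeezing, 0 with the 2 highest probe sets of each gene, 9 at a threshold of 0.01, 10 without samples 15 and 17, and 3 to 9 with single samples left out (3 without sample 11, 8 without 13, 7 without 15 and 9 without 17). The member genes above background numbered 8 in every setting except the lower limit, where Ppp3cc made them 9. Leaving out samples moved the SD of single member probe sets, and examples above background are given beside their values. Without samples 15 and 17 the SD of Ppp1r1b fell from 0.111 to 0.0381 and that of Ppp1ca from 0.0741 to 0.0379. Without samples 15 and 17 the SD of the brightest Ppp1cc set was 0.0, since samples 11 and 13 hold equal values. No paired analysis was possible because the samples form 1 group. The number of arrays, and signal at or near the level of background genes for Ppp3cc, Ppp1r1b and the dim probe sets, limit these values.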

Other observations

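Ppp1r14a, the smooth muscle inhibitor of myosin phosphatase, had the largest SD of the listed PP1 inhibitors, 0.537, and was named after its values were seen. Its values were 5.86, 7.11, 6.36 and 6.14 in samples 11, 13, 15 and 17, with a mean of 6.37, just under the background. Mog, a surface protein of myelin with a mean of 6.475, right at the limit, had the same order of samples, at 6.003, 7.07, 6.54 and 6.30. Cnp had this order too and Mobp did not, both named after their values were seen. Of the 7 measured oligodendrocyte markers 4 were lowest in sample 17, where Ppp1r14a was not. The part of oligodendrocyte content in the values of Ppp1r14a was not tested.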
